A study of Mus musculus with 22 samples.

Results

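A set of 9 genes stands for the islet cells that do not make insulin: Gcg, Ttr, Irx1 and Irx2 for alpha cells, Sst and Hhex for delta cells, Ppy and Pyy for PP cells, and Ghrl for epsilon cells. They were found as the rows of the deposited table that carry these symbols, 9 of 57010 rows, each symbol on 1 row, and all 9 were among the 16756 genes tested. Whether each gene is confined to the cell type it stands for, Pyy to PP cells included, was not tested. Poly(A) RNA of isolated islets was measured in 22 male mice aged 5.5 weeks, 1 mouse per library. The C57 background had 5 wild type mice (C57 WT) and 6 mice heterozygous for MafA S64F, a single amino acid change in the beta cell transcription factor MAFA (C57 Het). The background called Mixed had 5 wild type (Mixed WT) and 6 heterozygous mice (Mixed Het). The strains behind Mixed are not stated in the labels, and the column names give 5 to 6 weeks in place of a single age.

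Alpha cells release glucagon, which raises hepatic glucose output, delta cells release somatostatin, which restrains both insulin and glucagon release, and PP cells release pancreatic polypeptide. Epsilon cells make ghrelin and are mainly cells of the developing pancreas. Each hormone is made as a longer precursor that proteases cut, and each lineage keeps its own transcription factors, Irx1 and Irx2 in alpha cells and Hhex in delta cells. MAFA belongs to the MAF family, whose members bind a recognition element with the letters TGCTGA as its core.

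The sequences upstream of the 4 abundant hormone genes are shown because their transcripts carry the comparisons that follow and because the altered protein is a DNA-binding factor. They are the 250 bases before the annotated start in RefSeq GRCm38.p6, matched by symbol, whereas the submitters' notes name mm39. Each lies on the minus strand and is written 5′ to 3′ along the gene. Gcg is at chr2:62483654-62483903, Sst at chr16:23890845-23891094, Ppy at chr11:102101320-102101569 and Pyy at chr11:102107833-102108082. Capitals mark TGACGTCA (the cAMP response element, a palindrome), TGCTGA or its reverse complement TCAGCA (the MAF half-site, both strands) and TATAAA (the TATA box, forward strand only). No marked match overlaps another.
Gcg: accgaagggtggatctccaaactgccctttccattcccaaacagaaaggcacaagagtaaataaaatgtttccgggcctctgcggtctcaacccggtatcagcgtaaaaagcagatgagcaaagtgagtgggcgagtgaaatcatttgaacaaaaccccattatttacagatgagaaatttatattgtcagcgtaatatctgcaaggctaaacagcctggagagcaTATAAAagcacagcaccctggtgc
Sst: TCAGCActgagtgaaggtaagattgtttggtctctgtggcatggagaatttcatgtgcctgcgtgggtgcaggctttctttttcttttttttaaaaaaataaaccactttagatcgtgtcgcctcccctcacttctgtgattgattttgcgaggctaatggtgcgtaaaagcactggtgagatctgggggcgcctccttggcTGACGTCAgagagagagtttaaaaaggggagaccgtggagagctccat
Ppy: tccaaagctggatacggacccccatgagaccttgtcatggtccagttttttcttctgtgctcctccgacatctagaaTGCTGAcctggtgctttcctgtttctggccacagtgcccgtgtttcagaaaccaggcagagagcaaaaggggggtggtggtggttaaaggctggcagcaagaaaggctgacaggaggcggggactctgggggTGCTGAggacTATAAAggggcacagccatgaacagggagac
Pyy: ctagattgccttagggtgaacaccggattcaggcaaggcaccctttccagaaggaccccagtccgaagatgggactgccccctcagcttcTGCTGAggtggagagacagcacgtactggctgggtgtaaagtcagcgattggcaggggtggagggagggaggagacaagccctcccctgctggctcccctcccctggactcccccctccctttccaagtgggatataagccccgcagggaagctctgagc

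The Sst window held the cAMP response element with its first base at position -48 from the start, a motif found in 1.55% of 32851 windows of the same length. TGCTGA or its reverse complement, present in 16.1% of windows, occurred in Ppy at -173 and -41, in Pyy at -160 and in Sst at -250. In another Pyy window, which overlaps the one shown, the same site lay at -216. The windows of Ghrl, Irx2 and Hhex, not shown, held no TGCTGA on either strand. TATAAA, present in 7.59% of windows, began at -24 in Gcg and at -31 in Ppy. The Gcg window held no TGCTGA on either strand, which says only that these letters are not in this window. A match describes the letters and is not evidence of binding. Windows of 7 of the 9 genes were used, and none was used for Irx1 or Ttr. The selection passed over a chromosome, so a missing window does not show that the reference lacks it.

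Mafa mRNA, the targeted gene, lay between 362 and 571 TPM (the deposited unit, scaled for transcript length and for the library's total) in C57 WT mice and between 93.8 and 152 in C57 Het mice. In Mixed mice it lay between 440 and 775 TPM in WT and between 95.2 and 199 in Het. The change in the protein itself is not visible in these values. Samples of 1 group correlated at 0.950 to 0.990 over all genes tested on the log2(TPM + 1) scale. The labels number the libraries from 1 to 22 in blocks that coincide with the groups. Library order and group therefore cannot be told apart. In bulk islets, fewer cells of a type and less RNA per cell cannot be told apart either, so every value below is a share of islet RNA.

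Of the 9 genes, 6 were higher in C57 Het than in C57 WT islets (Gcg, Ttr, Irx1, Irx2, Sst and Hhex), and 0 were lower, where 26.4% of all genes tested were called higher. In Mixed islets 7 were higher, the same 6 and Pyy, and 0 were lower, where 30.7% of all genes were called higher. A call is a limma adjusted p under 0.05 over all genes tested. The median log2 difference of the 9 genes was 0.91 in C57 and 1.40 in Mixed, against 0.08 and 0.10 for all genes. Median-of-ratios scaling moved the Mixed median of all genes to -0.01 and left the same number of the 9 called in each background. In 4 of the 9 in C57, every Het mouse lay above every WT mouse (15.9% of all genes), and in 5 of 9 in Mixed (17.9%).

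**Figure D1:**
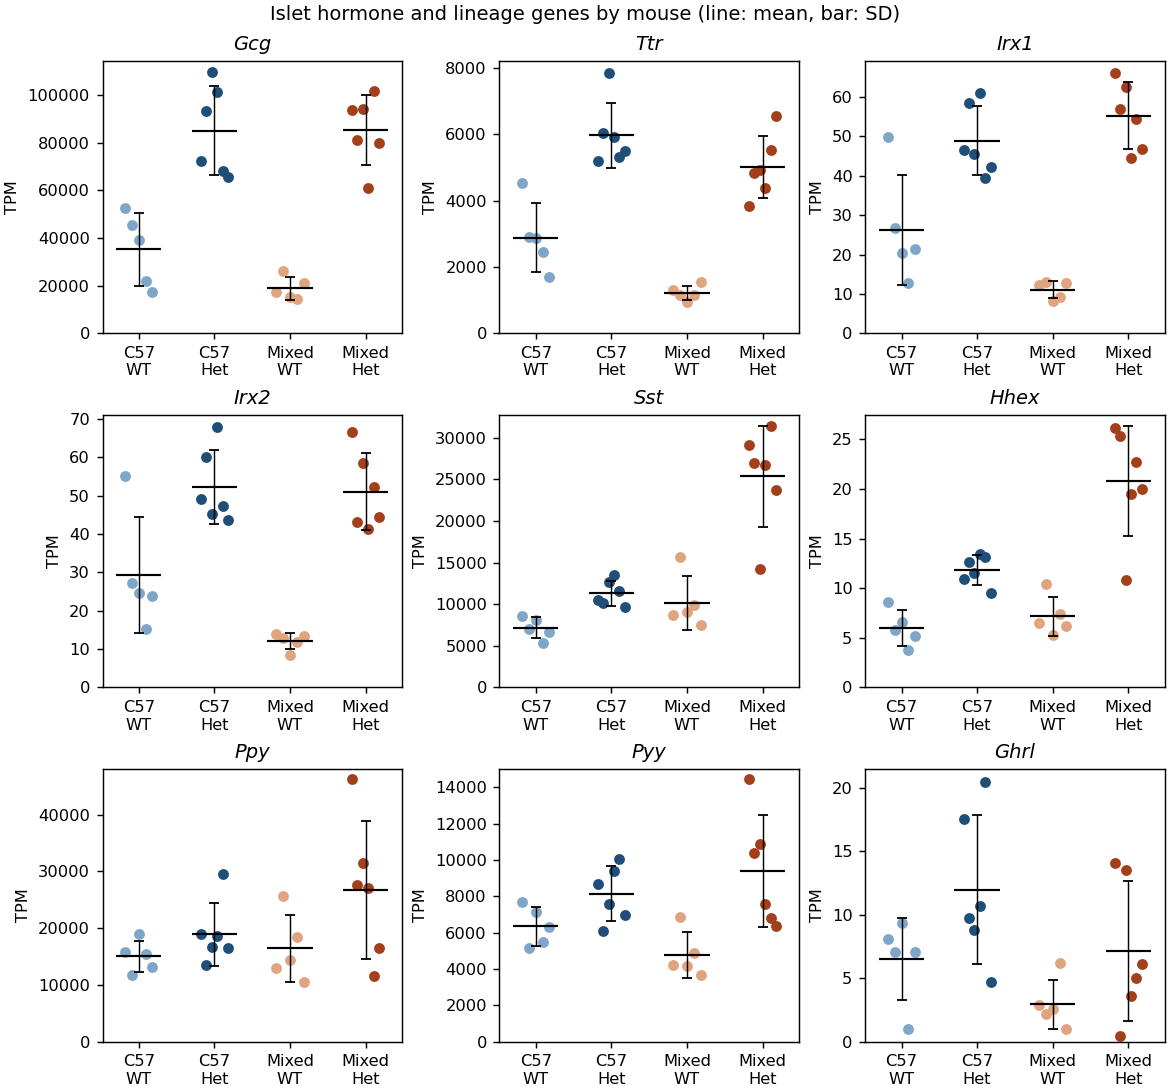
TPM of the 9 genes in each of the 22 mice, one panel per gene, with linear axes from 0. Points are mice, the line is the group mean and the bar its SD (n = 5 WT, n = 6 Het). The alpha genes in the first panels are lowest in Mixed WT and at similar levels in both Het groups, whereas Sst and Hhex are highest in Mixed Het.

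Glucagon mRNA (Gcg, ENSMUSG00000000394) had the highest mean of the 9 in every group. The 5 C57 WT mice had 52775, 45469, 38980, 21876 and 17320 TPM, and the 6 C57 Het mice ran from 65774 through a median of 82983 to 109449 TPM. The 5 Mixed WT mice had 17577, 26342, 15310, 14638 and 21223 TPM, and the Mixed Het mice ran from 60916 through 87480 to 101567 TPM. Every Het mouse was above every WT mouse of its background, and C57 WT was the most spread group relative to its mean. Means were 35284 ± 15214 (SD, n = 5) and 85099 ± 18646 TPM (n = 6) in C57, a 2.41-fold difference, and 19018 ± 4835 and 85235 ± 14562 TPM in Mixed, a 4.48-fold difference. The log2 difference was 1.37 for C57 mice (SE 0.26, limma adjusted p = 0.0004234) and 2.18 for Mixed mice (SE 0.26, adjusted p = 1.153e-06). The difference between those differences, 0.81 (SE 0.37), did not pass (limma adjusted p = 0.1679). Without a filter on low values the SE of the C57 difference was 0.67 and its call ended (limma adjusted p = 0.2014), and the interaction passed with sample weights (adjusted p = 0.04932).

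Transthyretin (Ttr, ENSMUSG00000061808), a carrier of thyroid hormone and of retinol-binding protein that is abundant in alpha cells, had 4530, 2896, 2866, 2445 and 1700 TPM in C57 WT mice and 5205 to 7868 TPM in C57 Het mice, with a median of 5714. The Mixed mice had 1305, 1162, 948.5, 1157 and 1547 TPM in WT and 3858 to 6557 TPM in Het, with a median of 4891. Het and WT did not overlap on either background. Ttr rose on the log2 scale by 1.11 for C57 mice (SE 0.19, limma adjusted p = 0.0001311) and by 2.03 for Mixed mice (SE 0.19, adjusted p = 3.473e-08). The liver also makes Ttr, and the summed level of 3 hepatocyte markers (Alb, Apoa2 and Serpina1c) was 3.996 to 32.19 TPM over the 22 mice, with Serpina1c at 0 in 13 of them. Neither of the 2 hepatocyte markers tested was called in either background.

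Irx1 (ENSMUSG00000060969) and Irx2 (ENSMUSG00000001504), Iroquois homeobox factors of alpha cells, changed alike. Irx1 was 49.8, 26.7, 20.5, 12.9 and 21.3 TPM in C57 WT mice and 39.6 to 60.9 TPM in C57 Het mice (median 46.0). The Mixed mice had 12.4, 12.98, 8.19, 9.23 and 12.7 TPM in WT and 44.5 to 66.2 TPM in Het (median 55.8). C57 WT replicate 1, at 49.8 TPM, lay within the Het range, and the Mixed groups were far apart. The log2 difference of Irx1 was 0.99 for C57 mice (SE 0.22, limma adjusted p = 0.001341) and 2.23 for Mixed mice (SE 0.22, adjusted p = 8.08e-08). Irx2 had the same C57 WT mouse on top, at 55.1 TPM against 15.3 to 27.3 in the other 4. Its log2 difference was 0.92 for C57 mice (SE 0.21, limma adjusted p = 0.001978) and 1.98 for Mixed mice (SE 0.21, adjusted p = 2.782e-07). The 4 other Iroquois genes, Irx3 to Irx6, were near or at 0, from Irx3 at no more than 2.529 TPM to Irx6 at 0 in all 22 libraries, and Irx3, the only one tested, was not called.

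Somatostatin (Sst, ENSMUSG00000004366) had 8603, 7005, 8126, 5401 and 6655 TPM in C57 WT mice and 9675 to 13482 TPM in C57 Het mice (median 11044). Mixed mice reached higher, with 8689, 15700, 9040, 9890 and 7518 TPM in WT and 14191 to 31376 TPM in Het (median 26882). The C57 groups were separate, whereas in Mixed the highest WT mouse (replicate 2) exceeded the lowest Het mouse (replicate 3). Mean Sst was 1.58-fold higher in Het in C57 and 2.50-fold higher in Mixed. The log2 difference was 0.67 for C57 mice (SE 0.20, limma adjusted p = 0.01041) and 1.32 for Mixed mice (SE 0.20, adjusted p = 1.63e-05). Without a filter on low values the C57 call ended (limma adjusted p = 0.1237). Under quantile normalization the Sst difference was 0.85 in C57 and 0.79 in Mixed, both called (limma adjusted p = 0.003014 and 0.004107), so the order of the backgrounds turned. The interaction there was -0.063 and was not called (limma adjusted p = 0.9095). That scaling sets each value by its rank in the library, which is coarse for the most abundant genes. Ins2 differed by 0 on both backgrounds under it.

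Hhex (ENSMUSG00000024986), a homeobox factor that delta cells need, followed Sst at a far lower level, with a mean Sst to Hhex ratio between 960 and 1422 in the 4 groups. It was 8.65, 5.84, 6.55, 3.80 and 5.19 TPM in C57 WT mice and 9.52 to 13.5 TPM in C57 Het mice (median 12.1). Hhex in Mixed mice was 6.52, 10.5, 5.27, 7.36 and 6.19 TPM in WT and 10.9 to 26.2 TPM in Het (median 21.4). Mixed WT replicate 2 and Mixed Het replicate 3 were again the highest and the lowest of their groups, and Het and WT did not overlap on either background. Hhex rose on the log2 scale by 0.91 for C57 mice (SE 0.19, limma adjusted p = 0.001047) and by 1.40 for Mixed mice (SE 0.19, adjusted p = 6.578e-06).

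Pancreatic polypeptide (Ppy, ENSMUSG00000017316) was not called on either background. It had 15797, 11761, 19015, 15416 and 13077 TPM in C57 WT mice and 13470 to 29600 TPM in C57 Het mice (median 17586). In Mixed mice it had 12951, 25748, 14441, 18378 and 10566 TPM in WT and 11526 to 46236 TPM in Het (median 27386), a 4.01-fold range between the lowest and the highest Het mouse. The groups overlapped throughout. The log2 difference was 0.31 for C57 mice (SE 0.29, limma adjusted p = 0.4196) and 0.64 for Mixed mice (SE 0.29, adjusted p = 0.07703). The Mixed difference was called when Mixed WT replicate 2 (0.82, adjusted p = 0.02954), Mixed Het replicate 5 (0.85, adjusted p = 0.01333) or Mixed Het replicate 6 (0.75, adjusted p = 0.04845) was left out of the limma fit. The C57 difference was called under quantile normalization (0.54, limma adjusted p = 0.03621), which sets values by rank. It was 0.17 without C57 Het replicate 5 (limma adjusted p = 0.6843).

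Peptide YY (Pyy, ENSMUSG00000017311), a relative of pancreatic polypeptide encoded by the neighbouring gene, had 7665, 5140, 7153, 5468 and 6303 TPM in C57 WT mice and 6082 to 10064 TPM in C57 Het mice (median 8114). Mixed mice had 4208, 6878, 4161, 4883 and 3679 TPM in WT and 6337 to 14444 TPM in Het (median 8957). Groups overlapped on both backgrounds, in Mixed through WT replicate 2 alone. Pyy rose by 0.95 on the log2 scale in Mixed (SE 0.20, limma adjusted p = 0.0006897), and its difference in C57 was 0.35 (SE 0.20, adjusted p = 0.1754). The interaction of 0.60 (SE 0.29) did not pass (limma adjusted p = 0.1879), so the 2 backgrounds were not shown to differ.

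Ghrelin (Ghrl, ENSMUSG00000064177) was at trace level. It was 8.05, 7.04, 9.33, 1.02 and 7.07 TPM in C57 WT mice and 4.69 to 20.5 TPM in C57 Het mice (median 10.2). In Mixed mice it was 2.87, 2.18, 2.56, 6.17 and 0.981 TPM in WT and 0.476 to 14.04 TPM in Het (median 5.54), a 29.5-fold range within 1 group. The log2 differences, 0.85 for C57 mice (SE 0.51, limma adjusted p = 0.1981) and 0.80 for Mixed mice (SE 0.51, adjusted p = 0.2142), had the widest errors of the 9 genes and were not called. Without C57 WT replicate 4, the lowest C57 mouse, the C57 difference was 0.43 (limma adjusted p = 0.5269). Without Mixed Het replicate 2, the lowest mouse, the Mixed difference was 1.22 and was called (limma adjusted p = 0.03363). Mboat4, the acyltransferase that activates ghrelin, reached at most 0.7016 TPM and was not tested.

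**Figure D2:**
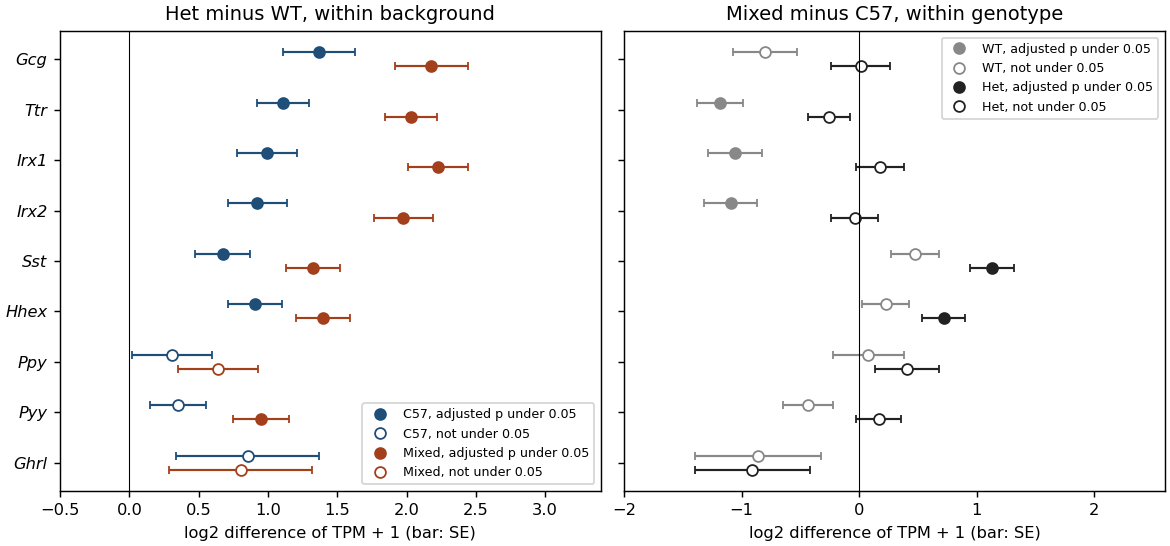
Log2 differences of TPM + 1 with their SE for the 9 genes, Het minus WT within each background on the left and Mixed minus C57 within each genotype on the right. Filled points had a limma adjusted p under 0.05. Ttr, Irx1 and Irx2 are called between the WT groups, and Sst and Hhex between the Het groups.

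The backgrounds were also compared within each genotype. Among WT mice, 3 of the 9 were lower in Mixed than in C57 and 0 were higher, where 4.99% of all genes were called lower: Ttr by -1.18 (SE 0.20, limma adjusted p = 0.0004061), Irx2 by -1.09 (SE 0.22, adjusted p = 0.002504) and Irx1 by -1.06 (SE 0.23, adjusted p = 0.004056). For Ttr and Irx2 every Mixed WT mouse was below every C57 WT mouse, 2 of 9 against 3.21% of all genes. Gcg was -0.80 (SE 0.27, limma adjusted p = 0.061) in that comparison, with overlapping groups, and it was called without C57 WT replicate 4 (-0.94), C57 WT replicate 5 (-1.03) or Mixed WT replicate 2 (-0.93), and also under 3 other settings of the fit. On C57 WT and Mixed WT samples alone, Irx1 no longer passed (limma adjusted p = 0.05466).

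Among Het mice, 2 of the 9 were higher in Mixed than in C57, where 13.3% of all genes were called higher, and both are delta cell genes. Sst was higher by 1.13 (SE 0.19, limma adjusted p = 0.0002439) with every Mixed Het mouse above every C57 Het mouse, 1 of 9 against 6.56% of all genes. Hhex was higher by 0.72 (SE 0.18, limma adjusted p = 0.008069), with overlap. Between the WT groups Sst differed by 0.48 (limma adjusted p = 0.1418) and Hhex by 0.23 (adjusted p = 0.5081), and neither interaction passed (adjusted p = 0.1422 and 0.2598), so the Het and WT differences between backgrounds were not shown to be unequal for these genes. The Sst call ended under quantile normalization (0.47, limma adjusted p = 0.08977). The 4 alpha genes differed by -0.26 to 0.18 between the Het groups and were not called. For Gcg the difference was 0.01 (SE 0.25, limma adjusted p = 0.9815), and it was negative under 3 other scalings.

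The Het minus WT difference itself was larger in Mixed for 3 of the 9, where 4.62% of all genes had a positive interaction called. The interaction was 1.24 (SE 0.31, limma adjusted p = 0.02107) for Irx1, 1.06 (SE 0.30, adjusted p = 0.03659) for Irx2 and 0.93 (SE 0.26, adjusted p = 0.03698) for Ttr. This test shares its WT mice with the comparison of the WT groups above. Irx1 kept its call when any 1 of the 22 libraries was left out (adjusted p from 0.005196 to 0.03994), but not without the filter on low values and the trend together (limma adjusted p = 0.05203). Without the filter alone the interactions of Irx2 (limma adjusted p = 0.08489) and Ttr (adjusted p = 0.1049) did not pass. Irx2 lost it in 8 of 22 such fits (C57 Het replicates 1, 3, 5 and 6, Mixed WT 3 and 4, Mixed Het 1 and 5; adjusted p up to 0.07132). Ttr lost it in 12 of 22 (C57 WT 1 and 3, C57 Het 1, 4, 5 and 6, Mixed WT 2, 3 and 4, Mixed Het 2, 5 and 6; adjusted p up to 0.07166). The Sst interaction of 0.65 (SE 0.28, limma adjusted p = 0.1422) passed without Mixed Het replicate 3 (0.81, adjusted p = 0.03615) and in no other leave-one-out fit.

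The 5 hormones together took 6.38 ± 1.75% of all TPM in C57 WT (n = 5) and 12.4 ± 1.83% in C57 Het mice (n = 6). In Mixed mice they took 5.04 ± 1.37% in WT and 14.7 ± 2.20% in Het. The C57 mice ran from 4.34 to 8.49% (WT) and 9.89 to 14.6% (Het), and the Mixed mice from 4.30 to 7.47% (WT) and 12.2 to 18.4% (Het), so genotypes were separate on both backgrounds. The rise was 5.97 percentage points in C57 and 9.64 in Mixed (two-sided exact permutation test, p = 0.002165 in each, the smallest that 462 splits give, adjusted 0.002165). Within that pool Gcg made up 53.3 ± 10.8% in C57 WT, 68.5 ± 6.98% in C57 Het, 38.3 ± 7.11% in Mixed WT and 58.2 ± 7.09% in Mixed Het mice. Ppy went from 24.7 ± 6.74% to 15.6 ± 5.17% in C57, and Mixed mice had 32.2 ± 5.25% in WT and 17.98 ± 6.48% in Het. These shares of the pool were not tested.

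**Figure D3:**
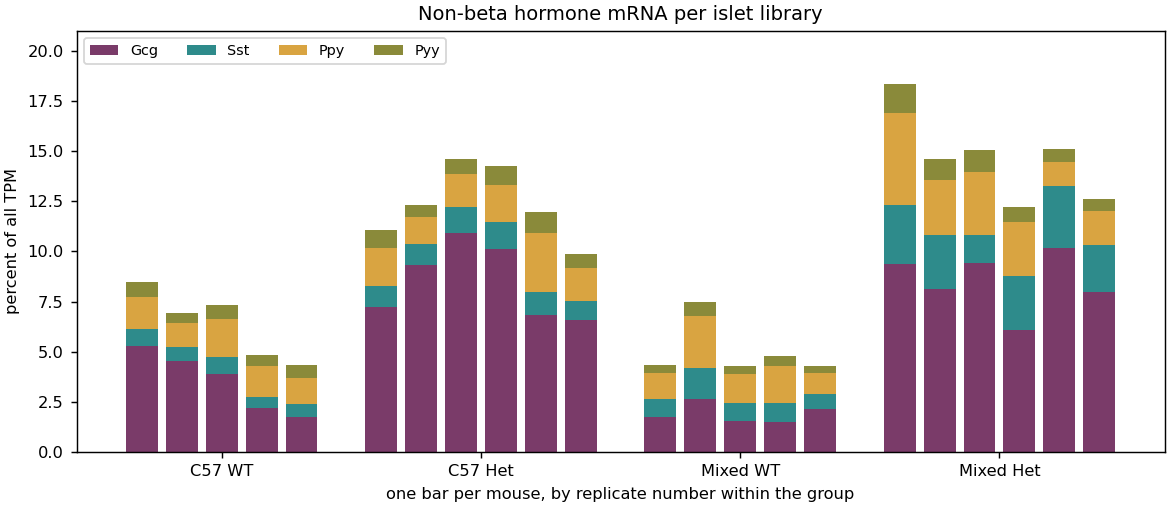
Percent of all TPM taken by Gcg, Sst, Ppy and Pyy in each of the 22 mice, stacked, one bar per mouse in replicate order within its group. Ghrl is too low to be seen. Every Het bar is taller than every WT bar of its background, and most of the added height is Gcg.

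Ratios of 2 transcripts within a library do not depend on the total to which TPM is scaled. Of 20 ratio tests (10 ratios on 2 backgrounds, two-sided exact permutation tests), 10 had an adjusted p under 0.05. There was 4.82 ± 1.58 times as much Gcg as Sst in C57 WT and 7.495 ± 1.25 times in C57 Het mice, a log2 difference of 0.69 (exact p = 0.008658, adjusted 0.02706). In Mixed mice the ratio was 1.94 ± 0.53 in WT and 3.62 ± 1.53 in Het, a log2 difference of 0.86 (exact p = 0.01082, adjusted 0.02706). Glucagon mRNA therefore gained on somatostatin mRNA on both backgrounds, with overlapping groups. Gcg to Ppy differed by 1.54 on the log2 scale in Mixed (exact p = 0.004329, adjusted 0.01732), with separate groups, and by 1.06 in C57 (exact p = 0.0303, adjusted 0.0551), which passed without C57 WT replicate 2 (1.26) or C57 Het replicate 5 (1.25).

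Against insulin (Ins1 plus Ins2), Gcg rose by 1.68 in C57 and by 2.73 in Mixed on the log2 scale, with separate groups on both (exact p = 0.002165, adjusted 0.01443 in each). Sst against insulin rose by 0.99 (exact p = 0.002165, adjusted 0.01443) and by 1.87 (exact p = 0.004329, adjusted 0.01732), again with separate groups. Ppy against insulin rose by 0.63 (exact p = 0.01082, adjusted 0.02706) in C57 and by 1.19 (exact p = 0.02165, adjusted 0.04329) in Mixed, with overlap. The denominator moved too. Ins1 fell by 0.61 on the log2 scale in C57 (limma adjusted p = 0.005885, and 0.06746 with median-of-ratios scaling) and by 0.73 in Mixed (adjusted p = 0.00103). Ins2 differed by -0.19 (limma adjusted p = 0.4969) and -0.46 (adjusted p = 0.07727). Ppy itself differed by 0.31 and 0.64 and was not called. How much of its change against insulin comes from the lower insulin level was not tested. The call of Ppy against insulin was lost without C57 WT replicate 2 or 5 in C57 and in 8 of 11 leave-one-out fits in Mixed (every Mixed WT mouse but replicate 2, and Mixed Het replicates 1 to 4).

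Ratios within a lineage moved less. Gcg to Ttr differed by 0.26 (SE 0.16, exact p = 0.1277, adjusted 0.1596) in C57 and by 0.15 (SE 0.21, exact p = 0.4848, adjusted 0.5104) in Mixed. Gcg to Irx2 differed by 0.42 (SE 0.26, exact p = 0.184, adjusted 0.2165) and by 0.11 (SE 0.16, exact p = 0.4697, adjusted 0.5104). Sst to Hhex fell by 0.35 in C57 (exact p = 0.01515, adjusted 0.03367) and was -0.20 in Mixed (exact p = 0.0974, adjusted 0.1356). The C57 value kept its direction but was no longer called in 7 of 11 leave-one-out fits (C57 WT replicates 2, 3, 4 and 5, C57 Het 1, 2 and 5). Ppy to Pyy was -0.04 (SE 0.12, exact p = 0.7554, adjusted 0.7554) and -0.31 (SE 0.17, exact p = 0.1017, adjusted 0.1356). Whether a ratio moved more on one background than on the other was not tested.

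**Figure D4:**
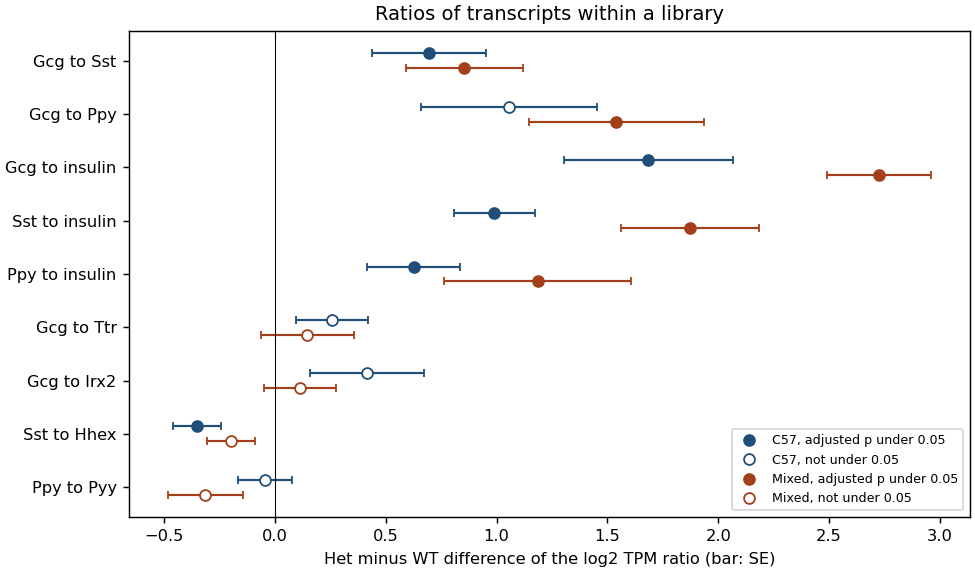
Het minus WT difference of 9 log2 TPM ratios, with the SE of the difference, for C57 (blue) and Mixed (red). Filled points had an adjusted exact permutation p under 0.05 over 20 tests. Gcg to insulin lies farthest to the right on both backgrounds, and the 4 ratios within a lineage (Gcg to Ttr, Gcg to Irx2, Sst to Hhex and Ppy to Pyy) lie nearer 0 than the other 5.

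Mice of 1 group differed from each other in ways that followed lineage in part. With each group's mean removed, 6 of 36 pairs of the 9 genes correlated over the 22 mice on the log2(TPM + 1) scale with an adjusted p under 0.05 (100000 permutations within groups, both genes read from the same library). Permutation p-values are those of r unless rho is named with them. Irx1 and Irx2 had r = 0.95 and rho = 0.89 (permutation p = 2e-05, adjusted 0.00036). Ppy and Pyy had r = 0.88 and rho = 0.85 (permutation p = 1e-05, the smallest the resamples give, adjusted 0.00036). Sst and Hhex had r = 0.89 and rho = 0.88 (permutation p = 5e-05, adjusted 0.0006). The genes of the first and of the second pair are neighbours on their chromosome, with 0 protein-coding genes between them in RefSeq, and Sst and Hhex lie on different chromosomes. Without the 2 mice farthest out on the first gene's axis r was 0.87, 0.86 and 0.80.

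Gcg correlated with Irx1 (r = 0.72, rho = 0.70, permutation p = 0.00309, adjusted 0.02225), with Ttr (r = 0.70, rho = 0.70, permutation p = 0.00287, adjusted 0.02225) and with Irx2 (r = 0.66, rho = 0.61, permutation p = 0.0077, adjusted 0.0462). Without the 2 farthest mice these were 0.74, 0.47 and 0.62, so the relation of Gcg with Ttr rests in part on them. Gcg and Ttr had r = 0.90 and 0.83 within C57 WT and C57 Het but 0.11 within Mixed Het mice. Ttr did not pass with Irx1 (r = 0.49, permutation p = 0.1187, adjusted 0.2849) or Irx2 (r = 0.46, permutation p = 0.1408, adjusted 0.2897). Within Mixed Het mice these 2 were -0.47 and -0.42. Between lineages, Gcg and Sst had r = 0.39 (permutation p = 0.06182, adjusted 0.1855). Their rho was 0.54 (permutation p of rho = 0.01599, adjusted 0.07195). Gcg and Ppy had r = -0.01 and rho = -0.05 (permutation p of r = 0.9478, adjusted 0.9478). Hhex had r = 0.50 with Irx1 (permutation p = 0.02902, adjusted 0.1492), 0.49 with Irx2 and 0.47 with Gcg, none called. For Hhex and Gcg rho was 0.58 (permutation p of rho = 0.00974, adjusted 0.05009). The split by lineage was therefore not clean.

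**Figure D5:**
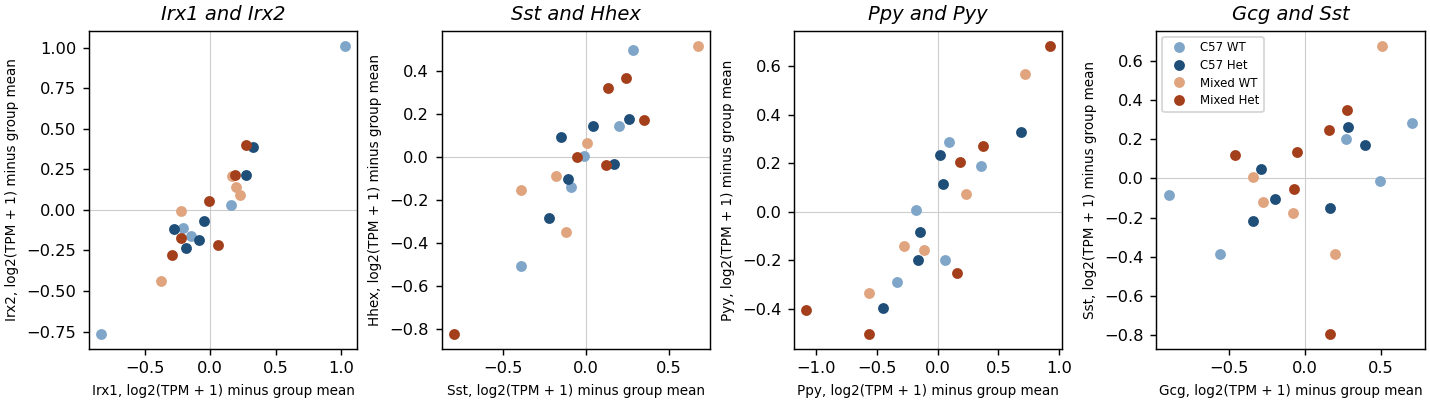
Each mouse's log2(TPM + 1) minus its group mean for 4 pairs of genes, coloured by group (22 mice per panel). Points of the first 3 pairs lie along a line (r = 0.95, 0.89 and 0.88), and those of Gcg and Sst scatter (r = 0.39).

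By the same measure over 8078 genes with a mean of at least 10 TPM, the genes most like Gcg were Higd1a (r = 0.91), Ffar4, Smarca1 and Cdo1 (0.81 each), with no p given. For Sst they were Hhex (0.89), Arg1 (0.80), Eef1a2 (0.80) and Rbp4 (0.79), and for Ppy they were Pyy (0.88), Tspan8 (0.77), Map2k4 (0.75) and Wnk2 (0.74). Ffar4, a fatty acid receptor listed here among delta cell genes, was thus among the 4 nearest genes of Gcg and not of Sst.

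Other genes of the same cells were read from lists. All 8 other alpha cell genes listed were higher in C57 Het islets, where 26.4% of all genes were called higher. In Mixed 7 of 8 were higher (30.7% of all genes), with Slc7a2 at 0.33 (limma adjusted p = 0.1444). Their median log2 difference was 0.85 in C57 and 1.27 in Mixed. The sizes were uneven, with Pcsk2 at 0.71 and Tm4sf4 at 0.40 in Mixed. Whether each listed gene is confined to alpha cells was not tested. Slc38a5, an amino acid transporter of alpha cells, went from 21.4 ± 7.96 to 146 ± 37.5 TPM between C57 genotypes and from 19.1 ± 4.98 to 230 ± 48.2 TPM between Mixed genotypes, log2 differences of 2.74 and 3.53 (limma adjusted p = 7.01e-09 and 9.558e-11). The vitamin D binding protein Gc rose by 1.27 and 2.16. Among the 8, 1 interaction was called, that of Gc (0.88, limma adjusted p = 0.02484). A positive interaction was called for 4.62% of all genes.

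Other delta cell genes were higher in 5 of 6 cases in C57 and in 6 of 6 in Mixed, with Crhr2 the exception in C57 (0.31, limma adjusted p = 0.05241). Over all genes, 26.4% were called higher and 11.6% lower in C57, and 30.7% and 13.5% in Mixed. The ghrelin receptor Ghsr rose by 1.31 and 1.45, Spock3 by 1.09 and 1.22, and the retinol-binding protein Rbp4 by 0.88 and 1.88. Rbp4 (interaction 0.998, limma adjusted p = 0.02679) and Ffar4 (0.89, adjusted p = 0.04814) rose more in Mixed. Of 6 listed PP and epsilon genes 4 were tested, with 3 higher and 1 lower in C57 and 2 higher and 0 lower in Mixed. Neuropeptide Y (Npy), of the same family as Ppy and Pyy, rose by 1.80 and 2.04 with overlapping groups. Its Mixed Het mice ran from 126 to 966 TPM.

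A list of endocrine transcription factors held the beta cell factors Pdx1 and Nkx6-1 and the progenitor factor Neurog3 beside factors found in several endocrine cell types. Of 10 tested, 1 was higher and 3 lower in C57, where 26.4% of all genes were called higher and 11.6% lower, and 2 were higher and 4 lower in Mixed (30.7% and 13.5%). Pdx1 (-0.53) and Nkx6-1 (-0.46) were 2 of the 4 lower in Mixed. With median-of-ratios scaling 6 were lower in C57 and 7 in Mixed. Over all genes that scaling called 6584 in C57 and 7327 in Mixed in either direction, against 6362 and 7395 without it. The share called lower under it is not given. Pax6 fell by 0.32 and by 0.52 on the log2 scale, whereas Neurog3 rose by 0.59 and 1.42, from 3.91 ± 0.91 to 12.1 ± 2.58 TPM in Mixed. Of 9 genes of prohormone processing and granules, 6 were higher in C57, 7 in Mixed and 0 lower in either. Pcsk1, a convertase of beta cells that can cut proglucagon to GLP-1, rose by 1.33 and 1.05, the amidating enzyme Pam by 0.94 and 1.27, and the granule protein Scg2 by 0.90 and 0.999.

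Receptors of these hormones moved in both directions. Of 11 listed, 6 were tested, with 2 higher and 3 lower in C57 and 2 higher and 2 lower in Mixed. The shares over all genes were 26.4% higher and 11.6% lower in C57, and 30.7% and 13.5% in Mixed. The glucagon receptor Gcgr went from 75.8 ± 14.4 to 18.95 ± 3.34 TPM between C57 genotypes and from 80.5 ± 9.77 to 17.6 ± 5.88 TPM between Mixed genotypes, log2 differences of -1.94 and -2.18 (limma adjusted p = 6.159e-08 and 5.933e-09). Glucagon mRNA and the mRNA of its receptor thus moved in opposite directions. The GLP-1 receptor Glp1r fell by 0.89 and by 2.24, with an interaction of -1.35 (limma adjusted p = 0.0005119). The somatostatin receptors Sstr1 (0.89 and 1.13) and Sstr2 (0.93 and 1.87) rose, and Sstr3 fell by 0.37 in C57. Sstr1 was low, with WT means of 0.747 TPM in C57 and 0.593 in Mixed, where the log2(TPM + 1) scale understates changes. Its mean TPM differed 3.02-fold and 4.35-fold, and that of Sstr2 2.19-fold and 4.99-fold.

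Markers of other tissues moved with genotype as well. Beside the counts below, 26.4% of all genes were called higher and 11.6% lower in C57, and 30.7% and 13.5% in Mixed. The 1 of 4 ductal and 1 of 7 beta cell markers called higher in C57 did not exceed that share. All 6 acinar markers were higher in C57 Het and 0 of 6 were called in Mixed, with a summed level of 186.2 to 351.9 TPM in C57 WT, 224 to 1482 in C57 Het, 155.8 to 773.7 in Mixed WT and 543.6 to 1063 in Mixed Het mice. When the fit carried the acinar score, the called genes were the same in number in each genotype comparison (6 and 7 of 9), Gcg being 1.52 in C57 and 2.27 in Mixed. The interactions of Irx2 (limma adjusted p = 0.05021) and Ttr (adjusted p = 0.05687) then no longer passed. Mesenchymal markers were called higher in Mixed Het for 4 of 5 tested and in C57 for 0 of 5, with a summed level of 30.63 to 59.84 TPM in Mixed WT and 56.88 to 347 TPM in Mixed Het. Ductal markers were higher in 1 of 4 tested in C57 and in 4 of 4 in Mixed, with a summed level of 78.13 to 100.9 TPM in Mixed WT and 98.07 to 129 in Mixed Het. Most of that sum was Krt7, with a mean of 78.7 TPM in Mixed WT and 93.9 in Mixed Het. Macrophage and leukocyte markers were lower in 2 of 5 tested in C57, the sum being 182.7 to 233.8 TPM in WT and 104.4 to 154.5 in Het, and higher in 4 of 5 in Mixed, the sum being 81.95 to 110.2 in WT and 120.8 to 254.4 in Het. Most of these sums was C1qa, with means of 178 and 103 TPM in C57 WT and Het and 79.9 and 117 in Mixed WT and Het. Endothelial markers were lower in 2 of 5 in C57 and called in 0 of 5 in Mixed, and Schwann markers were called in 0 of 3 in C57 and higher in 2 of 3 in Mixed. The part of these other cells in the results was not tested, apart from the acinar score. Beta cell markers were higher in 1 and lower in 2 of 7 in C57, and lower in 4 of 7 in Mixed. With median-of-ratios scaling the beta cell markers in C57 were higher in 0 and lower in 1 of 7, and in Mixed 2 of 4 ductal and 1 of 3 Schwann markers were higher. The shares over all genes by direction under that scaling are not given. The gut also makes Pyy and Ghrl, and of 4 intestinal markers Gip was at 0 in 15 of 22 libraries, Cck reached at most 2.407 TPM and Lgr5 at most 0.4761 TPM. Vil1, the only one tested, was lower in Het on both backgrounds (-0.86 and -0.81).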

How the data were processed

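Poly(A) RNA of isolated islets from 22 male mice was sequenced, per the labels' protocols. The authors deposited 1 table of TPM values for 57010 genes, each column summing to 1000000. The submitters' processing notes name STAR 2.7.10b, MultiQC 1.7 and mm39 without their roles, and the counting tool, the annotation and the use of strand are not given in the sources used here. TPM keeps no depth, so depth is unknown and no counting interval was computed. Columns were matched to samples by library name (0 value columns unused). Replicates were numbered by accession and pair nothing.

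Genes reaching 1 TPM in 5 or more samples were analysed as log2(TPM + 1), which understates changes of low genes. One limma 3.58.1 model (R 4.3.3, trended eBayes) held the means of the 4 groups, with Benjamini-Hochberg adjustment over 16756 genes. Limma adjusted p-values and SEs are from this fit unless an alternative is named. Two-sided exact permutation tests over all 462 splits served for ratios and shares, and permutation within groups for correlations (SciPy 1.17.1, NumPy 2.4.6), each family adjusted by Benjamini-Hochberg. The limma fit was tested on simulated data, and the permutation tests were not.

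The members and lists were chosen with earlier results of these data known. The genes named are the members, at most 3 called list genes per direction and genotype comparison, list genes a ratio uses, and the 4 genes most like Gcg, Sst and Ppy. Slc7a2, Pcsk2, Tm4sf4, Crhr2 and Ffar4's interaction were singled out after their values were seen. So were the marker genes named with their levels, the untested Iroquois genes and Mboat4. Of the 10 ratios, 1 is not reported here, nor are some list genes. Alternatives were a pseudocount of 0.1, no filter, a mean of at least 5 TPM, 3 other scalings, the contrast's samples alone, an acinar covariate, no trend, sample weights, a log2 difference of at least 1 and leaving out each library. Fitting without filter and without trend was added after seeing the data.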

Additional observations from a re-analysis of the deposited data

Results flagged for a closer look

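Each of the 9 genes was looked at in each of the 4 groups of 5 or 6 mice, 36 sets of values. In all, 4 of the 36 sets had a library farther from its neighbours than the 95% limit of Dixon's test, and chance gives about 1 in 20. The sets share mice and some of the genes vary together, so they are not independent. Sst was 15700 TPM in Mixed WT replicate 2, where the next highest mouse had 9890. Ppy was 29600 TPM in C57 Het replicate 5, where the next highest had 18900. Ghrl was 1.018 TPM in C57 WT replicate 4, where the next lowest had 7.038. Ttr was 7868 TPM in C57 Het replicate 3, where the next highest had 6037.

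The Het minus WT difference was larger in Mixed than in C57 mice by the test of the interaction for 3 genes, Irx1 (1.24), Irx2 (1.06) and Ttr (0.93) on the log2 scale, with limma adjusted p of 0.02107, 0.03659 and 0.03698. Irx2 lost its call in 8 and Ttr in 12 of 22 leave-one-out fits. None of the 3 passed without the filter and the trend together.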

How the results depend on the processing

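No paired analysis was possible because replicates were numbered by accession, which pairs no mice. The count of the 9 genes called was 6 in C57 and 7 in Mixed, and leaving out any library gave 6 throughout and 7 to 8. With a log2 difference of at least 1 also required, the C57 count was 2. Without the filter on low values it was 4, Gcg (adjusted p = 0.2014, SE 0.67) and Sst (adjusted p = 0.1237) being lost in C57. Without the filter and without the trend it was 6, with Gcg at 0.0008731 and Sst at 0.02129 (limma). The interaction count of 3 became 1 without the filter, 1 with the acinar covariate, 0 without filter and trend, and 1 to 4 when a library was left out. The count of 2 in the comparison of the Het groups became 1 under quantile normalization and 1 with a log2 difference of at least 1.

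The values that turned sign were not called. Under quantile normalization the interactions of Sst and Ppy were -0.063 and -0.14. Gcg in Mixed against C57 Het was -0.034 under median-of-ratios scaling, -0.17 under quantile normalization and -0.045 with a total without the most abundant genes. Leaving out libraries gave -0.30 to 0.38 for the Ghrl interaction, -0.10 to 0.22 for Ppy between WT groups, -0.057 to 0.11 for Gcg and -0.12 to 0.04 for Irx2 between Het groups. The causes were not tested.

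Among the ratios, leaving out a library gave, on the log2 scale, 0.88 to 1.26 for Gcg to Ppy in C57, 0.48 to 0.71 for Ppy to insulin in C57, 0.93 to 1.40 for Ppy to insulin in Mixed, -0.43 to -0.30 for Sst to Hhex in C57 and -0.12 to 0.021 for Ppy to Pyy in C57. The hormone share kept its call in each alternative run. Depth is unknown, so how far counting error limits low genes such as Ghrl cannot be given.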
